A study of Mus musculus with 8 samples.

Results

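ZFP36 and BTG/TOB proteins shorten the poly(A) tails of mRNAs, and their own genes are induced by stimuli. The 7 genes described here are Zfp36, Zfp36l1 and Zfp36l2 of the ZFP36 family and Btg1, Btg2, Tob1 and Tob2 of the BTG/TOB family. They were chosen by symbol, with earlier results of these data known. The table of mouse pancreatic islets held 15985 gene symbols, and all 7 genes were present and passed the filter on low values. In these islets Btg2, Tob1 and Zfp36 had the largest differences, with mean values in the 4 knockout-labelled libraries that were 3.14, 2.34 and 2.16 times those of the 4 controls. None of the 7 genes passed the threshold of a test adjusted over all genes when the 8 libraries were used. Tob1, Btg2 and Zfp36 passed it when 1 control library, WT 2, was left out. WT 2 was the highest control library for 6 of the 7 genes, so leaving it out raises their differences by construction. None of the 7 passed when any other single library was left out.

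The study deleted Sox9, which encodes a transcription factor known from progenitors and ducts of the pancreas, from insulin-producing beta cells and sequenced the RNA of whole islets. The 4 KO samples came from Ins-Cre;Sox9fl/fl mice, in which an insulin promoter drives the Cre recombinase that removes exons 2 and 3 of Sox9. The 4 WT samples came from mice of the genotypes Sox9fl/fl (WT 1), Sox9fl/+ (WT 2), Sox9+/+ (WT 3) and Sox9+/fl (WT 4). All mice were of mixed strain and 13 to 16 months old, and the methods describe males. No control carried Cre, so the presence of Cre and the deletion cannot be told apart. In bulk islets, fewer cells of a type and less RNA per cell also cannot be told apart.

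ZFP36 proteins carry a pair of CCCH zinc fingers that bind AU-rich elements in the 3′ untranslated region (3′ UTR) of short-lived mRNAs, such as those of cytokines, and recruit the CCR4-NOT deadenylase complex. BTG and TOB proteins bind the deadenylase subunits CNOT7 and CNOT8, and TOB proteins also bind the cytoplasmic poly(A)-binding protein PABPC1. Zfp36 and Btg2 are classic immediate early genes, whose transcription starts within minutes of a stimulus without new protein synthesis, and BTG and TOB proteins are also known to restrain proliferation.

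The ZFP36 genes themselves hold AU-rich elements, and the strictest form of this element is shown because it was found in one family only. The 9-base core TTATTTATT was searched on the sense strand of the 3′ UTR of the longest coding transcript (GENCODE M21 annotation, GRCm38). It occurred once in each of the 3 ZFP36 genes and in none of the 4 BTG/TOB genes. Among 20518 mouse 3′ UTRs of at least 50 bases, 7.74% held it. Among 3′ UTRs of similar length the shares were 4.12%, 9.90% and 9.89% for Zfp36, Zfp36l1 and Zfp36l2. For Btg1, Btg2, Tob1 and Tob2, which lack it, they were 17.7%, 10.8%, 4.17% and 12.5%. The looser 5-base element ATTTA, which the 9-base core contains, occurred in all 7 genes, between 3 times in Zfp36 and Tob1 and 11 times in Btg1. The sites lie at chr7:28376951-28376979, chr12:80108167-80108195 and chr17:84184914-84184942, all on the minus strand, and the capitals mark the 9-base core.
Zfp36 site: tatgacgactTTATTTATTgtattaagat
Zfp36l1 site: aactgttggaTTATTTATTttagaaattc
Zfp36l2 site: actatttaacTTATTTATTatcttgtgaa

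Promoters are shown for the 3 genes with the largest differences and for Btg1, the closest relative of Btg2. RefSeq promoter entries (GRCm38.p6) were found for 6 of the 7 genes, the exception being Zfp36l2, and the 250 bases before the annotated start were searched on both strands. The Btg2 window (chr1:134079156-134079405, minus strand) held the full cAMP response element TGACGTCA, 166 bases before the start. This element is bound by CREB and ATF factors, and it occurred in 1.55% of 32851 mouse promoter windows. Its shorter form TGACG, which lies within it, was also found in the windows of Tob1 (chr11:94211204-94211453, plus strand) and Btg1 (chr10:96616751-96617000, plus strand), against 17.8% of all windows. The Zfp36 window (chr7:28379229-28379478, minus strand) held a CArG box, the site of serum response factor, 58 bases before the start, and the EGR motif GCGGGGGCG, 105 bases before it. These motifs occurred in 1.47% and 2.57% of all windows. The window lies inside the Zfp36 gene of the GENCODE annotation (chr7:28376784-28380253), which starts further upstream than the RefSeq entry. Capitals mark the cAMP response elements, the CArG box, the EGR motif and the TATA motif TATAAA (12.4% of all windows). On Btg1, the capitals CGTCA are TGACG read from the other strand.
Btg2 promoter: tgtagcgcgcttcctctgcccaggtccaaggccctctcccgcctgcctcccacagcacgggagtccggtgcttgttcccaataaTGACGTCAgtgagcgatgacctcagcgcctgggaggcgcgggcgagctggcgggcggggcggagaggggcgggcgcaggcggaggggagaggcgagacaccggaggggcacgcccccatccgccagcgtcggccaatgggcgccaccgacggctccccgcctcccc
Tob1 promoter: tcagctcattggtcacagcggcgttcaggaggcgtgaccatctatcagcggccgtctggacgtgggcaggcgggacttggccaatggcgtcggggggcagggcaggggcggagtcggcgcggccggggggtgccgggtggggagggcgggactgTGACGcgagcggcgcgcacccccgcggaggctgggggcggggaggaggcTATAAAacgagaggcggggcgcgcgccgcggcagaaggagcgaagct
Zfp36 promoter: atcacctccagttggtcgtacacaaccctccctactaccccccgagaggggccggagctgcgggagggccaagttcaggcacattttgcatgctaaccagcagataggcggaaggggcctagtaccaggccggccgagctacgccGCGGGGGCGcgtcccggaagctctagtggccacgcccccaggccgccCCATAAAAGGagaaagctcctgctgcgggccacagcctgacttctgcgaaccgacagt
Btg1 promoter: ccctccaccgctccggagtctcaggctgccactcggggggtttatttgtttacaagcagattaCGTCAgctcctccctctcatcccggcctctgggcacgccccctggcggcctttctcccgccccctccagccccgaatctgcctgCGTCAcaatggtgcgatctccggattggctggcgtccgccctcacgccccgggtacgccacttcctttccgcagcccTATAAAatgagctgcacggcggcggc

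None of the 6 windows held the AP-1 motif TGACTCA (4.46% of all windows), the second EGR motif GCGTGGGCG (0.536%) or the SOX core motif AACAAT (9.42%). Like that of Zfp36, the Tob2 window (chr15:81858327-81858576, minus strand) lies inside its gene in the GENCODE annotation (chr15:81848272-81858796). TATAAA was also present for Zfp36l1, and CCAAT, which 33.8% of all windows held, was present in 4 of the 6. These matches describe the letters of the windows. Binding was not measured. Zfp36, Zfp36l1, Zfp36l2 and Tob2 overlap annotated genes on the opposite strand (Gm44710, Gm26669, AC132455.1 and Gm49476). Whether strand was used in the pseudoalignment is not given in the sources used here, so reads of each pair cannot be told apart with certainty.

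The values are estimated read counts per gene divided by a size factor of the library, here called normalized values. Estimated depth ranged from 11.1 to 19.1 M reads in the KO libraries and from 13.1 to 26.2 M reads in the WT libraries, and 1 read was worth a normalized value of 0.657 to 1.37. The fewest estimated reads behind a value of the 7 genes were 122, for Zfp36l1. The 11 beta cell markers took 28.5% to 35.5% of the total in KO libraries and 31.6% to 39.1% in WT libraries, and none was listed at 0. Sox9 itself had normalized values of 36.6, 16.4, 20.6 and 11.7 in KO libraries, against 23.3, 37.3, 13.4 and 13.3 in WT libraries (exact two-sided permutation test, p = 0.971, n = 4 each). The lowest of these values rested on 10.96 estimated reads. A lower level was not detectable in these bulk libraries at this depth, and the gene total does not separate the deleted exons, or beta cells, from the rest. The groups are therefore called libraries labelled KO and WT. Although the methods describe males, library WT 3 stood apart in its Y-linked genes, whose sum was 117, against 2388 to 2549 in the libraries labelled KO and 2367 to 2712 in the other 3 WT libraries.

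Levels of different genes were compared per kilobase of the longest coding transcript. Btg2 was highest in both groups, at 6930 ± 1900 normalized units per kb in libraries labelled KO and 2205 ± 1375 in WT libraries (SD, n = 4). In libraries labelled KO it was followed by Tob1 (1932 ± 427 per kb) and Zfp36 (1816 ± 508 per kb), whose ranges overlapped. Then came Btg1 (918 ± 129 per kb), Zfp36l2 (736 ± 76.4 per kb), Tob2 (163 ± 15.2 per kb) and Zfp36l1 (60.1 ± 5.98 per kb), with no overlap between neighbours. In WT libraries Zfp36 (840 ± 444 per kb), Tob1 (827 ± 240 per kb), Btg1 (677 ± 146 per kb) and Zfp36l2 (584 ± 124 per kb) followed Btg2, and each range overlapped with the next. Tob2 (119 ± 23.8 per kb) and Zfp36l1 (64.3 ± 16.6 per kb) were lowest there too, and their ranges overlapped although Tob2 was higher in 4 of 4 libraries. Within each family, then, the levels of the members spanned more than 10-fold.

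**Figure D1:**
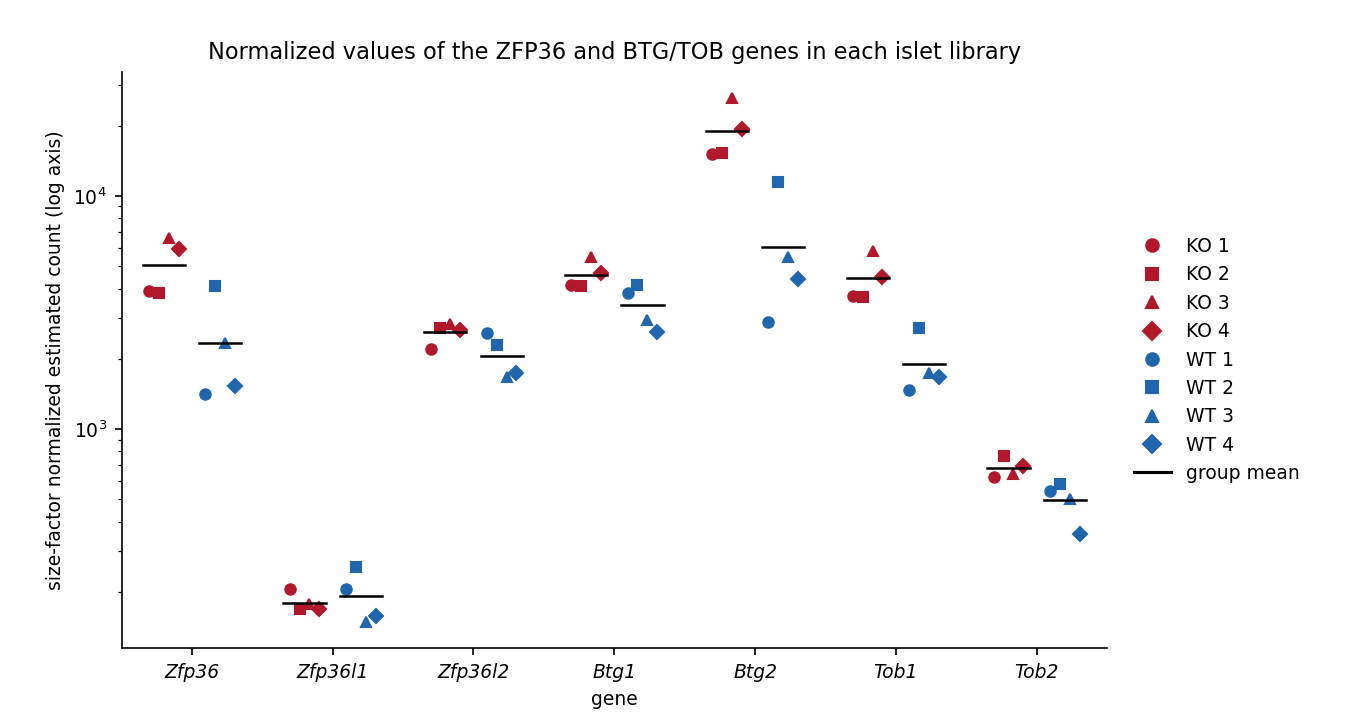
Normalized values (size-factor normalized estimated counts, log axis) of the 7 genes in each islet library. Red points are the 4 libraries labelled KO and blue points the 4 WT libraries, the marker shape gives the replicate number, and black lines are group means. The groups do not overlap for Btg2, Tob1 and Tob2, and for Zfp36 the library WT 2 (4095) lies above KO 1 and KO 2.

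Of the ZFP36 family, Zfp36 (tristetraprolin, chr7:28376784-28380253, minus strand) showed the largest difference. Its normalized values were 3889, 3839, 6611 and 5923 in libraries labelled KO, against 1410, 4095, 2343 and 1522 in WT libraries. The groups overlapped through WT 2 alone, which lay above KO 1 and KO 2 and was 2.33 times the mean of the other WT libraries. The log2 fold change (KO over WT) was 1.21 (SE 0.35, 95% interval 0.40 to 2.01), with a limma adjusted p of 0.285 (Benjamini-Hochberg over 15960 genes, threshold 0.05, unadjusted p = 0.00842). Without WT 2 it was 1.52 (SE 0.24) with a limma adjusted p of 0.0307.

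Zfp36l2 (chr17:84183931-84187947, minus strand), which is required for blood stem cells in mice, was more even. It had normalized values of 2203, 2720, 2804 and 2668 in libraries labelled KO, against 2571, 2286, 1664 and 1729 in WT libraries. Library KO 1 was low in its group, WT 1 and WT 2 were high in theirs, and the groups overlapped. Its log2 fold change was 0.35 (SE 0.15, limma adjusted p = 0.431).

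Zfp36l1 (chr12:80107754-80113013, minus strand), required for mouse embryonic development, was the least abundant of the 7 genes. Its normalized values were 206, 168, 177 and 169 in libraries labelled KO, against 206, 256, 149 and 158 in WT libraries, so that the groups overlapped fully. The log2 fold change was -0.07 (SE 0.18, 95% interval -0.46 to 0.33, limma adjusted p = 0.930), and its sign was positive under 3 of 18 alternative settings. The rodent gene Zfp36l3 was not in the table.

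Of the BTG/TOB family, Btg2 (chr1:134075170-134079120, minus strand), a target of p53 that is induced by many stimuli, differed most. Its normalized values were 15083, 15309, 26234 and 19414 in libraries labelled KO, against 2864, 11472, 5470 and 4387 in WT libraries. The groups did not overlap, KO 3 was the highest library, and WT 2 was 2.71 times the mean of the other WT libraries. The log2 fold change was 1.81 (SE 0.40, 95% interval 0.87 to 2.74) with a limma adjusted p of 0.186 (unadjusted p = 0.00215). Without WT 2 it was 2.18 (limma adjusted p = 0.00526).

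Tob1 (chr11:94211454-94215495, plus strand), an antiproliferative adaptor first studied with the ErbB2 receptor, had the smallest p of the 7. Its normalized values were 3725, 3694, 5780 and 4480 in libraries labelled KO, against 1467, 2697, 1738 and 1669 in WT libraries. The groups did not overlap, and KO 3 and WT 2 were again the highest of their groups. The log2 fold change was 1.24 (SE 0.20, 95% interval 0.80 to 1.67), which ranked 16 among 15960 genes by p and did not pass the threshold (limma adjusted p = 0.0610, unadjusted p = 6.1e-05). Without WT 2 it was 1.42 (limma adjusted p = 0.00278), and without WT 3 it was 1.21 (limma adjusted p = 0.147).

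Tob2 (chr15:81848272-81858796, minus strand), the paralogue of Tob1, was separated between the groups by a smaller step. Values were 621, 761, 638 and 691 in libraries labelled KO, against 542, 578, 500 and 353 in WT libraries. No WT value reached a KO value, and WT 4 was the lowest library. This gave a log2 fold change of 0.48 (SE 0.15, limma adjusted p = 0.287).

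Btg1 (chr10:96617006-96622809, plus strand), which is abundant in resting lymphocytes, had normalized values of 4146, 4096, 5485 and 4644 in libraries labelled KO, against 3843, 4144, 2942 and 2603 in WT libraries. The groups overlapped because WT 2 lay just above KO 2. Its log2 fold change was 0.46 (SE 0.16, limma adjusted p = 0.326). The related gene Btg3 had the opposite sign, with normalized values of 2108 to 2449 in libraries labelled KO and 2336 to 3155 in WT libraries and a log2 fold change of -0.29 (SE 0.11, limma adjusted p = 0.387). Btg4, known from oocytes, was not in the table.

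Counted together, 0 of the 7 genes passed the adjusted threshold in limma, at which 0.0376% of all genes tested were called higher and 0.0188% lower in libraries labelled KO. At an unadjusted limma p below 0.05, 6 of the 7 were higher and 0 lower. Of all genes, 4.34% were higher and 1015 of 15960 lower. For 3 of the 7 (Btg2, Tob1 and Tob2) each library labelled KO lay above each WT library, which held for 2.67% of all genes. Without WT 2, limma called 3 of the 7 higher (Zfp36, Btg2 and Tob1), against 0.294% of all genes. It called none of the 7 when any other single library was left out. WT 2 was the highest WT library for each of these 3 genes, so leaving it out raises their differences by construction. The calls without it are therefore not separate support. WT 2 was not set apart for any of the 7 genes by the rule for a library that stands apart. A Wald rule that uses the deposited variance terms called 2 of the 7 higher (Btg2 and Tob1, Benjamini-Hochberg adjusted p of 0.0129 and 2.8e-04), against 0.591% of all genes. The median log2 fold change of the 7 genes was 0.48, beside -0.03 for all genes tested. Because the 7 genes were chosen with earlier results of these data known, these counts describe them and do not test them as a set.

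**Figure D2:**
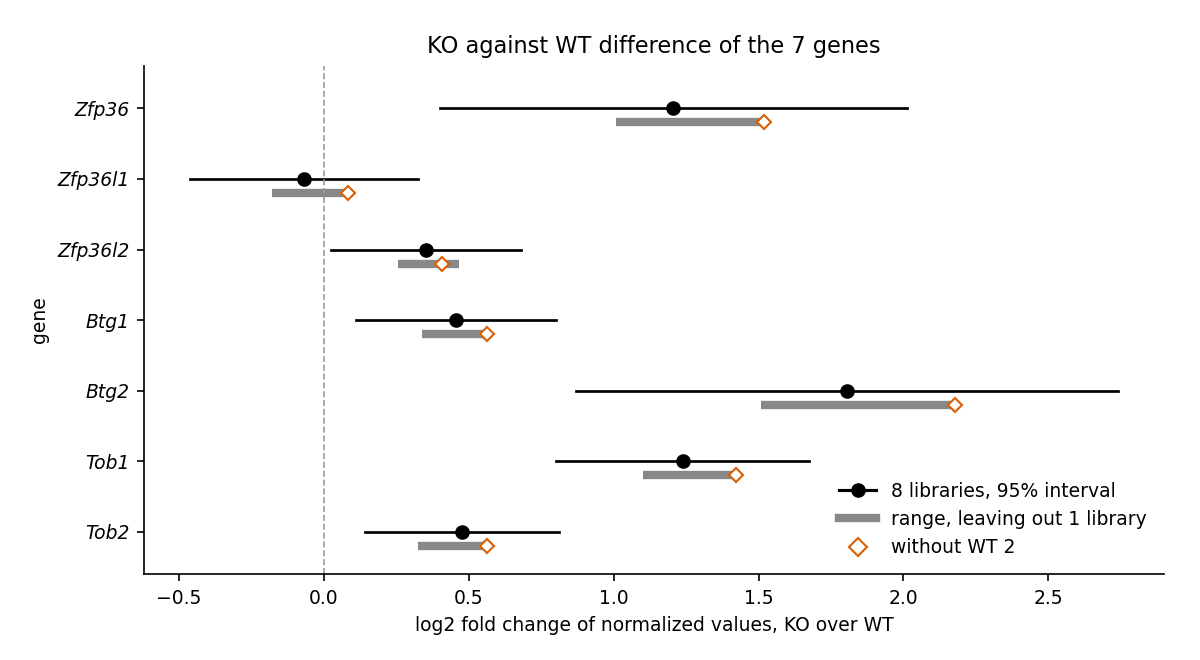
Log2 fold changes of normalized values (KO over WT) of the 7 genes. Black points with lines are the limma estimates from 8 libraries with their 95% intervals, grey bars span the estimates when 1 library is left out, and orange diamonds are the estimates without WT 2. For Zfp36, Btg2 and Tob1 the estimates without WT 2 (1.52, 2.18 and 1.42) are the highest of the leave-one-out range, and Zfp36l1 spans 0.

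The same libraries led their groups for most of the 7 genes. KO 3 was the highest library labelled KO for 5 of the 7 genes, and WT 2 was the highest WT library for 6 of the 7, Zfp36l2 being the exception. Estimated depth was also highest in KO 3 and WT 2 within their groups (19.1 and 26.2 M reads), though KO 4 was close at 19.1 M. WT 1, next among the WT libraries at 23.1 M, was the lowest of them for 3 of the 7 genes. The part of depth in these values was not tested. WT 2 exceeded the mean of the other WT libraries by the largest factors for Btg2, Zfp36 and Tob1 (1.66), and by 1.50 for Zfp36l1, 1.32 for Btg1, 1.24 for Tob2 and 1.15 for Zfp36l2. Without WT 3, the library that stood apart in its Y-linked genes, the log2 fold changes of Zfp36 and Btg2 were 1.25 and 1.82 (limma adjusted p of 0.438 and 0.365).

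Proportions between relatives were compared as well, since they do not depend on the size factors. The log2 ratio of Zfp36 to Zfp36l1 was 4.77 ± 0.48 in libraries labelled KO and 3.50 ± 0.59 in WT libraries (SD, n = 4), with no overlap. The log2 ratio of Btg2 to Btg1 was 2.02 ± 0.18 in libraries labelled KO and 0.67 ± 0.79 in WT libraries, also without overlap. For Tob1 to Tob2 it was 2.68 ± 0.37 in libraries labelled KO and 1.92 ± 0.38 in WT libraries, again without overlap. Of 9 pairs within the families, 5 did not overlap, the others being Btg2 to Tob2 and Tob1 to Btg1. Each of the 5 sets Zfp36, Btg2 or Tob1, which had the largest differences, against another member. They are therefore not results separate from the fold changes. The ranges overlapped for Zfp36 to Zfp36l2 (0.93 ± 0.34 in libraries labelled KO and 0.07 ± 0.76 in WT libraries), Zfp36l2 to Zfp36l1 (3.85 ± 0.29 and 3.43 ± 0.20) and Btg2 to Tob1 (2.09 ± 0.07 and 1.53 ± 0.47). The ratio of Tob2 to Btg1 was -2.75 ± 0.28 and -2.78 ± 0.15 on the log2 scale in libraries labelled KO and WT. These ratios use normalized values without length correction, were added after the data were seen and were not tested. The share of pairs without overlap among all genes was not determined.

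Immediate early genes were also followed as a list, which was chosen with earlier results of these data known. Of 37 such genes, 28 had a positive log2 fold change, with a median of 0.87, beside -0.03 for all genes tested. In 14 of the 37 each library labelled KO lay above each WT library, and in 1 each lay below. Of all 15960 genes tested, 7167 had a positive log2 fold change, 426 lay above in this way and 588 below. limma called 0 of the 37 with 8 libraries. At an unadjusted limma p below 0.05, 24 of them were higher and 1 lower, against 693 and 1015 of all genes tested. Without WT 2 limma called 11 higher and 0 lower, against 47 and 11 of all genes. The Wald rule with 8 libraries called 10 higher and 1 lower, against 93 and 95 of 15748 genes. Klf6, a zinc finger factor, had a log2 fold change of 1.33 (SE 0.20, limma adjusted p = 0.0520), and Rhob, a small GTPase, 0.99 (SE 0.23, limma adjusted p = 0.155). The AP-1 subunit gene Fosb had 1.33 (SE 0.27, limma adjusted p = 0.128).

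The score of this list, the mean centred log2 value of its genes, was 0.41, 0.20, 0.80 and 0.48 in libraries labelled KO, against -0.82, 0.26, -0.47 and -0.85 in WT libraries. WT 2 lay above KO 2, as it did for Zfp36. The difference of 0.94 had an exact two-sided permutation p of 0.0571 (n = 4 each; adjusted over 9 lists, 0.360). The sum of the 37 genes took 1.70% to 2.52% of the total in libraries labelled KO and 0.595% to 1.40% in WT libraries, and none was listed at 0. Its part in the differences of the 7 genes was not tested.

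**Figure D3:**
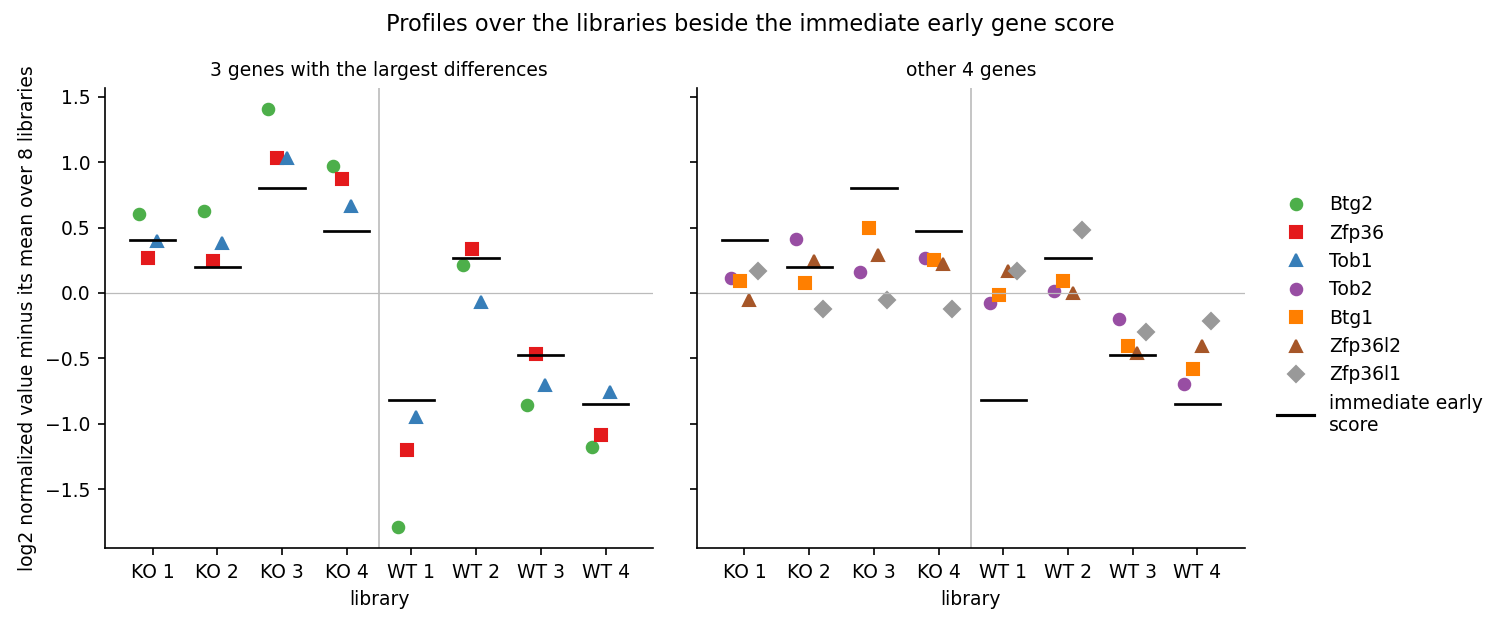
Log2 normalized value minus its mean over the 8 libraries (y axis) for each gene in each library (x axis, KO left of WT), with the immediate early gene score as black bars. Left, Btg2, Zfp36 and Tob1 lie high in KO 3 and low in WT 1 and WT 4, as does the score, and the values of Zfp36 (0.34) and the score (0.26) in WT 2 are above those in KO 2 (0.25 and 0.20). Right, the other 4 genes vary over a narrower range.

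The marker lists of other cell types and the heat shock genes were counted in the same way, and limma called 0 genes of the 7 lists given next with 8 libraries. At an unadjusted p below 0.05, 2 acinar, 2 endothelial and 4 heat shock genes were higher and 2 alpha, delta and PP cell markers lower. Of all 15960 genes tested, 693 were higher and 1015 lower. The Wald rule called 1 heat shock gene higher, against 93 of 15748 genes. In 2 of 11 heat shock genes and 1 of 13 endothelial markers each library labelled KO lay above each WT library, against 2.67% of all genes. Of 23 acinar (exocrine) markers 22 had a positive log2 fold change, and their sum took 0.681% to 1.69% of the total in libraries labelled KO and 0.246% to 1.14% in WT libraries, with the lowest score in WT 2 (-1.77) and 1 marker listed at 0 in at least 1 library. The score difference was 0.95 (exact permutation p = 0.171, adjusted over 9 lists 0.360). When the acinar score entered the fit as a covariate, the log2 fold changes of Btg2, Zfp36 and Tob1 were 2.33, 1.64 and 1.44 (limma adjusted p of 0.0967, 0.194 and 0.0942). All 11 cytosolic heat shock genes had a positive log2 fold change, and their sum took 0.783% to 1.28% in libraries labelled KO and 0.240% to 0.873% in WT libraries (score difference 0.74, exact permutation p = 0.0857, adjusted 0.360). The sum of 14 macrophage and leukocyte markers took 0.0391% to 0.0465% in libraries labelled KO and 0.0323% to 0.0461% in WT libraries, with none listed at 0. Of the other lists, 12 of 13 endothelial and 9 of 10 stellate and fibroblast markers had a positive log2 fold change (medians 0.17 and 0.36), and 9 of 10 duct and 7 of 8 alpha, delta and PP cell markers a negative one (medians -0.19 and -0.37). The adjusted permutation p of these 4 scores were 0.360 or higher. Of the 11 beta cell markers, 4 had a positive and 7 a negative log2 fold change (median -0.12). limma called 0 of the 11, with 3 higher and 0 lower at an unadjusted p below 0.05, and the Wald rule called 1 higher. In 2 of the 11 each library labelled KO lay above each WT library, against 2.67% of all genes. Their score difference was 0.02 (exact permutation p = 0.943). The part of the heat shock genes and of these cell types in the differences was not tested.

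The deadenylase machinery that the 7 proteins recruit gave values near 0. Of 12 subunits of the CCR4-NOT complex, limma called 0 (1 at an unadjusted p below 0.05, 0 by the Wald rule), and their log2 fold changes ran from -0.23 to 0.32 with a median of -0.03. The scaffold Cnot1 had -0.04 (SE 0.10). The deadenylase subunits that BTG and TOB proteins bind, Cnot7 and Cnot8, had -0.03 (SE 0.14) and 0.02 (SE 0.18), and the exonuclease subunits Cnot6 and Cnot6l had 0.01 (SE 0.13) and 0.13 (SE 0.13). The smallest p was that of Cnot3, with 0.32 (SE 0.12, limma adjusted p = 0.378).

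Apart from the poly(A)-binding list, the other steps of mRNA decay gave medians near that of all genes. Of 7 other deadenylases, 22 decapping and 5′ decay genes, 17 exosome and SKI genes and 20 other binders of 3′ elements, limma and the Wald rule each called 0, with median log2 fold changes of 0.05, -0.02, -0.04 and 0.00. At an unadjusted limma p below 0.05, 0, 2, 0 and 1 of them were higher and 1, 0, 0 and 3 lower. The decapping enzyme gene Dcp2 had 0.65 (SE 0.23, limma adjusted p = 0.334). Zc3h12c, a CCCH zinc finger gene of the regnase family, had 0.39 (SE 0.10, limma adjusted p = 0.174), and each library labelled KO was above each WT library. Of 11 poly(A)-binding proteins and partners 10 had a negative log2 fold change (median -0.18, 0 called by either rule, 3 lower at an unadjusted p below 0.05). Of all 15960 genes tested, 8793 had a negative log2 fold change and 1015 were lower at that unadjusted limma p. In 2 of these 11 genes each library labelled KO lay below each WT library, which held for 588 of all genes tested. Pabpc1, which encodes a protein that TOB proteins bind, had -0.24 (SE 0.12, limma adjusted p = 0.484). Larp4b, which stabilizes mRNAs, had -0.38 (SE 0.12, limma adjusted p = 0.271).

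Of the 10 genes of the p38-MK2 pathway, whose kinase MK2 phosphorylates and inactivates ZFP36, 8 had a negative log2 fold change (median -0.23). So had 8793 of all 15960 genes tested. limma called 0 of them (1 higher and 2 lower at an unadjusted p below 0.05), and the Wald rule called 1 higher, Dusp1. Dusp1 encodes the phosphatase that switches p38 off and is itself an immediate early gene. It had normalized values of 11738, 9628, 23445 and 14535 in libraries labelled KO, against 1659, 6075, 1903 and 1358 in WT libraries. The groups did not overlap, and KO 3 and WT 2 were again highest. Its log2 fold change was 2.63 (SE 0.51, limma adjusted p = 0.152), and 3.11 without WT 2 (limma adjusted p = 0.00186). The p38 kinase gene Mapk14 had -0.41 (SE 0.14, limma adjusted p = 0.326) and Mapkapk2, which encodes MK2, had -0.28 (SE 0.13, limma adjusted p = 0.482).

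Of 23 mRNAs known as targets of the ZFP36 family through AU-rich elements, 18 had a negative log2 fold change, with a median of -0.32. Of all 15960 genes tested, 8793 had a negative log2 fold change and 588 had each library labelled KO below each WT library. limma called 0 of the 23. At an unadjusted limma p below 0.05, 1 was higher and 8 were lower, against 693 and 1015 of all genes tested. The Wald rule called Fos higher and Ccl3 lower. The chemokine gene Ccl3 had normalized values of 249, 236, 309 and 274 in libraries labelled KO, against 478, 461, 410 and 336 in WT libraries. Each library labelled KO was below each WT library, and the log2 fold change was -0.65 (SE 0.14, limma adjusted p = 0.126). The cytokine gene Tnf, the first known target of ZFP36, had normalized values of 300, 289, 343 and 301 in libraries labelled KO, against 424, 441, 366 and 406 in WT libraries. These groups did not overlap either, and the log2 fold change was -0.41 (SE 0.11, limma adjusted p = 0.211). The cytokine gene Il10 was low in abundance, at 5.74 to 13.7 in libraries labelled KO and 13.3 to 46.6 in WT libraries.

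Fos, which encodes an AP-1 subunit, stood at the other end of this list. It had normalized values of 13099, 10272, 24890 and 16263 in libraries labelled KO, against 494, 5396, 1746 and 819 in WT libraries. The groups did not overlap, and the log2 fold change was 3.45 (SE 0.75, limma adjusted p = 0.192; without WT 2, 4.10 and 0.0196).

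**Figure D4:**
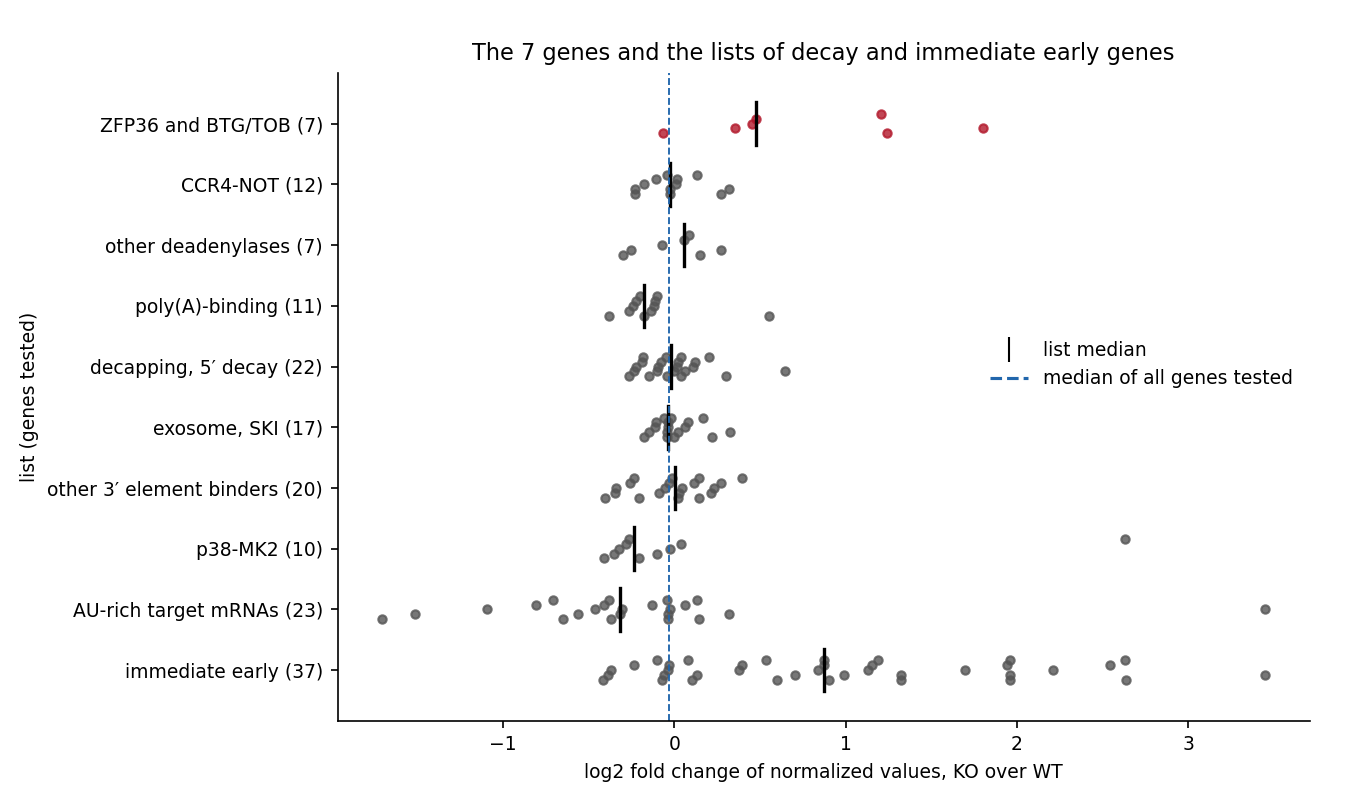
Log2 fold changes of normalized values (KO over WT, x axis) for the 7 genes (red) and for each gene tested of the lists of mRNA decay and immediate early genes (grey), with the number of genes in brackets. Black ticks are list medians and the dashed line is the median of all genes tested (-0.03). The 7 genes (median 0.48) and the immediate early genes (0.87) lie to the right of the CCR4-NOT subunits (-0.03), and the AU-rich target mRNAs (-0.32) to the left.

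The profiles over the 8 libraries were compared with those of all genes tested, by the root-mean-square distance of centred log2 values. The closest genes to Zfp36 were Junb (distance 0.13), Atf3 (0.15) and Fosb (0.17), against a median distance of 0.85 to all genes. Closest to Btg2 were C2cd4b (0.19), Ier2 (0.21) and Npas4 (0.25), against a median of 1.12. Closest to Tob1 were Klf6 (0.08), Irs2 (0.15) and Bbc3 (0.16), against a median of 0.76. Junb and Fosb encode AP-1 subunits, Irs2 an adaptor of insulin signalling, Npas4 an activity-induced factor and Bbc3 the apoptosis regulator PUMA.

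The remaining 4 genes had flatter profiles and other neighbours. Closest to Btg1 were Pdx1 (0.07), a master regulator of beta cells, Trmt1l (0.07) and Bcdin3d (0.10), against a median distance of 0.42. Zfp36l2 was closest to Mtg2 (0.05), Nop16 (0.07) and Gorab (0.08), Zfp36l1 to Mrto4 (0.06), Epdr1 (0.07) and Epb41l2 (0.09), and Tob2 to Abcc9 (0.11), Trmt10c (0.12) and Ier5 (0.13). Among the 7 genes, the shortest distance was that of Zfp36l2 to Btg1 (0.15), and across the families Zfp36 lay nearer to Tob1 (0.24) than to Zfp36l2 (0.66) or Zfp36l1 (0.79). The distances describe 8 libraries that share their group structure.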

How the data were processed

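RNA of pancreatic islets in 8 samples (4 labelled KO, 4 WT) was sequenced by the study from stranded libraries. The authors trimmed reads with cutadapt (1.13), pseudoaligned them with kallisto (0.46.1) to the Ensembl GRCm38 transcriptome and summed the estimates per gene in sleuth. Pseudoalignment divides reads between transcripts of similar sequence, so that close relatives can exchange reads. The deposited table holds, per library, a normalized signal, the estimated reads divided by the library's size factor. Its variance terms (natural log scale, unit other), made by the authors in sleuth, entered only the Wald rule. The deposited group difference, p-values and q-values, for genes and for transcripts, are the authors' comparison and were not used.

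The table's 16684 lines hold 15985 symbols, and repeated lines were dropped and distinct identifiers of a symbol summed. The value of 1 read was read from the steps between low values, of which 65.4% to 74.1% were within 0.05 of a whole multiple. Genes above 1 in at least 4 libraries were compared on log2(value + 0.5) by limma (3.58.1, R 4.3.3) with a trended, robust prior, two-sided, Benjamini-Hochberg threshold 0.05 over 15960 genes. A fold change is on this scale. The Wald rule refers the group difference over its standard error to the normal distribution. Single values were compared by exact permutation over 70 assignments, for which the smallest p is 0.0286. Scores of lists are means of centred log2 values.

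Named genes are the 7 members, the other family genes, Sox9, the 5 CCR4-NOT subunits given, up to 4 genes per list by smallest p and the 3 nearest profiles per member. The study describes 4 animals per group. The members and lists were chosen with earlier results of these data known. Alternatives were the pseudocount, the filter, scaling, the variance prior, an acinar covariate, the Wald rule, a replicate block and leaving out each library. The ratios between members were added after the data were seen.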

Additional observations from a re-analysis of the deposited data

Results flagged for a closer look

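In 40 groups of 4 libraries checked for a library that stands apart, 2 did. Chance alone sets 1 apart in about 1 of 20 groups, a count that takes no account of how far a library lies from the rest. The duct marker score of WT 2 was 0.344, against 0.02 to 0.06 in the other 3 WT libraries. The sum of 4 Y-linked genes was 117 in WT 3, against 2367 to 2712 in the other 3 WT libraries and 2388 to 2549 in the libraries labelled KO. The methods describe males. None of the 7 genes had a library set apart in this way.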

How the results depend on the processing

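With 8 libraries and limma, 9 genes passed the threshold (6 higher, 3 lower in libraries labelled KO), of which 0 were among the 7 genes and 0 in the pathway lists. The Wald rule gave 188, with 2 of the 7 genes and 12 pathway genes. Quantile normalization gave 17, 1 and 1, pseudocount 1 gave 14, 0 and 1, a filter at values above 10 gave 13, 0 and 1, and equal column totals gave 10 (10 higher, 0 lower), 1 and 1. The acinar covariate gave 4, and a fit without trend and robust prior gave 1. Leaving out 1 library gave 1 to 58 genes, 0 to 3 of the 7 genes and 0 to 11 pathway genes. The highest counts were those without WT 2, and the count was 1 without KO 2, KO 3, KO 4 or WT 1 and 3 without WT 4. The replicate block gave 6 genes (5 higher, 1 lower) and 0 of the 7. The labels give no pairing of same-numbered samples. Their deviations correlated at -0.16, -0.03, -0.12 and 0.07, which alone cannot exclude a pairing. Of 126 values of the 7 genes under 18 alternatives, 119 kept their side of the threshold, the other 7 being Tob1 in 4, Btg2 in 2 and Zfp36 in 1. Of 1097 values of other named genes 34 changed. The 6 genes other than Zfp36l1 were positive in 18 of 18 alternatives. Among the 7 genes depth limits Zfp36l1 most (122 estimated reads at the lowest), and Il10 and Sox9 were lower still (6.98 and 10.96).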
